A study of Mus musculus with 10 samples.

Results

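The Hoxb genes are a family of 10 homeobox transcription factor genes, Hoxb1 to Hoxb9 and Hoxb13, that lie in a row on mouse chromosome 11. They were chosen by name, out of the 22367 protein-coding genes of the GENCODE vM1 annotation on mm9, and each was given a window of its gene body plus 5 kb on each side. In mouse embryonic stem cells (ESCs), 6 ChIP-seq libraries, made from chromatin fragments enriched by an antibody, and 4 input libraries were sequenced. Suz12-TAP (FlagM2 antibody) and H3K27me3 were each measured in cells of BayGenomics gene trap line XG122 with the genotype Suz12Suz12TAP/+, expressing either scramble shRNA or Pcl3 shRNA, with 1 library of each and 1 input per cell population. The input of the knockdown cells is labelled Pcl3-shRNA6, while the ChIP libraries name no shRNA number, so whether they share it is not given. The Suz12TAP allele, at the gene's own position, encodes the whole protein with a 6xHis-3xFlag tag. The other allele is untagged, and scramble and knockdown cells share the tag. Pcl3-TAP was measured in E14 ESCs that carry a tagged Pcl3 which the shRNAs do not recognize, in 2 libraries with the genotypes Pcl3-TAP and Pcl3-wildtype-shRNA6 or Pcl3-TAP and Pcl3-wildtype-shRNA7 (knockdown labels Pcl3-shRNA6 and Pcl3-shRNA7), each with its input, and the authors deposited 1 list for both. Pcl3 sites thus come from another ESC line than the Suz12 and H3K27me3 sites.

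Polycomb repressive complex 2 (PRC2) is the enzyme that trimethylates lysine 27 of histone H3, a mark of silenced genes, and Suz12 is one of its core subunits. Polycomb-like 3 (Pcl3) is an accessory subunit. Hox genes specify position along the head to tail axis of the embryo. They are held silent by PRC2 in ESCs and are switched on in the order in which they lie, from the Hoxb1 end toward Hoxb13, as the axis is laid down.

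The files hold 4 lists of sites, each with a position and a Skellam p-value: 8876 Suz12 binding sites in scramble cells, 5722 Suz12-depleted sites with less Suz12 in Pcl3 knockdown cells, 5242 Pcl3 binding sites and 678 H3K27me3-depleted sites with less H3K27me3 in knockdown cells. Every line of the Suz12-depleted list repeats a line of the binding list, and the p-value printed there refers to binding, so the size of the loss is not given. Strength below is −log10 of the p-value. P-values written as 0, at 435 Suz12 and 208 Pcl3 sites, were placed at the largest finite value of their list, 307. The lists give no reads, so the depth behind a site is unknown and fold changes could not be computed. With 1 library per condition and 1 list per comparison there is no replicate error, and no test between conditions was possible. Counts are given beside the same counts over all genes or all sites.

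Sequences of stretches described below are shown first, 5′ to 3′ on the plus strand of mm9, with every CpG in capitals. The promoters of Hoxb1 and Hoxb8 are the 250 bases before the RefSeq start (RefSeq sequences of GRCm38.p6, placed in mm9 by an exact match), and were 2 of the 3 members with an entry, the other being Hoxb4. That of Hoxb1 lies at chr11:96226822-96227071, reaching a few bases past the GENCODE start, and holds 7 CpG. That of Hoxb8 lies at chr11:96142969-96143218 and holds 12. The other sequence is the middle 200 bases of a Suz12 site that is an exception within the cluster. This strongest Suz12 site outside the depleted list has its middle at chr11:96135576-96135775, in an intron of Hoxb9, with 0 CpG.
Hoxb1 promoter: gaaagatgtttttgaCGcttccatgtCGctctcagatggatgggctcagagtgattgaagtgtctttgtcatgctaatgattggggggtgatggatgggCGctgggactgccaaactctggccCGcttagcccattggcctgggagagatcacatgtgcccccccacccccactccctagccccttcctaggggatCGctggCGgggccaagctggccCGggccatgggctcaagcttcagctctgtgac
Hoxb8 promoter: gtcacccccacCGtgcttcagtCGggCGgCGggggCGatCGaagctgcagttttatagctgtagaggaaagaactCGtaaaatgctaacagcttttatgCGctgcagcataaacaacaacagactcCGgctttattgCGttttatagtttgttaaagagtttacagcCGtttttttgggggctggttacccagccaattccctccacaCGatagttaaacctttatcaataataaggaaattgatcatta
Hoxb9 intron site: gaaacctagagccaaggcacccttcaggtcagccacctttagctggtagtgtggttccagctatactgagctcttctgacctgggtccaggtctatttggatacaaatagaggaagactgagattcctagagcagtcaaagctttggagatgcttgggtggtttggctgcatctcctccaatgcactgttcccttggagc

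Suz12, Suz12-depleted and Pcl3 sites were each present in the windows of all 10 Hoxb genes, and 8 of 10 had an H3K27me3-depleted site. Over all protein-coding genes the same windows held a Suz12 site at 28.8%, a Suz12-depleted site at 20.7%, a Pcl3 site at 14.7% and an H3K27me3-depleted site at 3.13%. Sites of all 4 lists were present at 2.24% of genes. Among the 6442 genes with a Suz12 site, 71.7% had a depleted one, 47.7% a Pcl3 site and 10.5% an H3K27me3-depleted site. On chromosome 11 the last of these shares was 28.4%, against 8.51% on the other chromosomes, and the part of the chromosome in the count of 8 was not tested. The 10 windows overlap and share sites, so the members are not independent: 12 of 35 Suz12 sites lay in more than 1 window, and 1 Pcl3 site lay in 8 of them. The members without decreased H3K27me3 were Hoxb2 and Hoxb3, which lie side by side. The count of 8 fell to 5 in gene bodies without flanks and to 4 (Hoxb1, Hoxb8, Hoxb9 and Hoxb13) at p-values of at most 1e-10. With flanks of 10 kb it rose to 10, since Hoxb2 and Hoxb3 then gained a site.

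**Figure D1:**
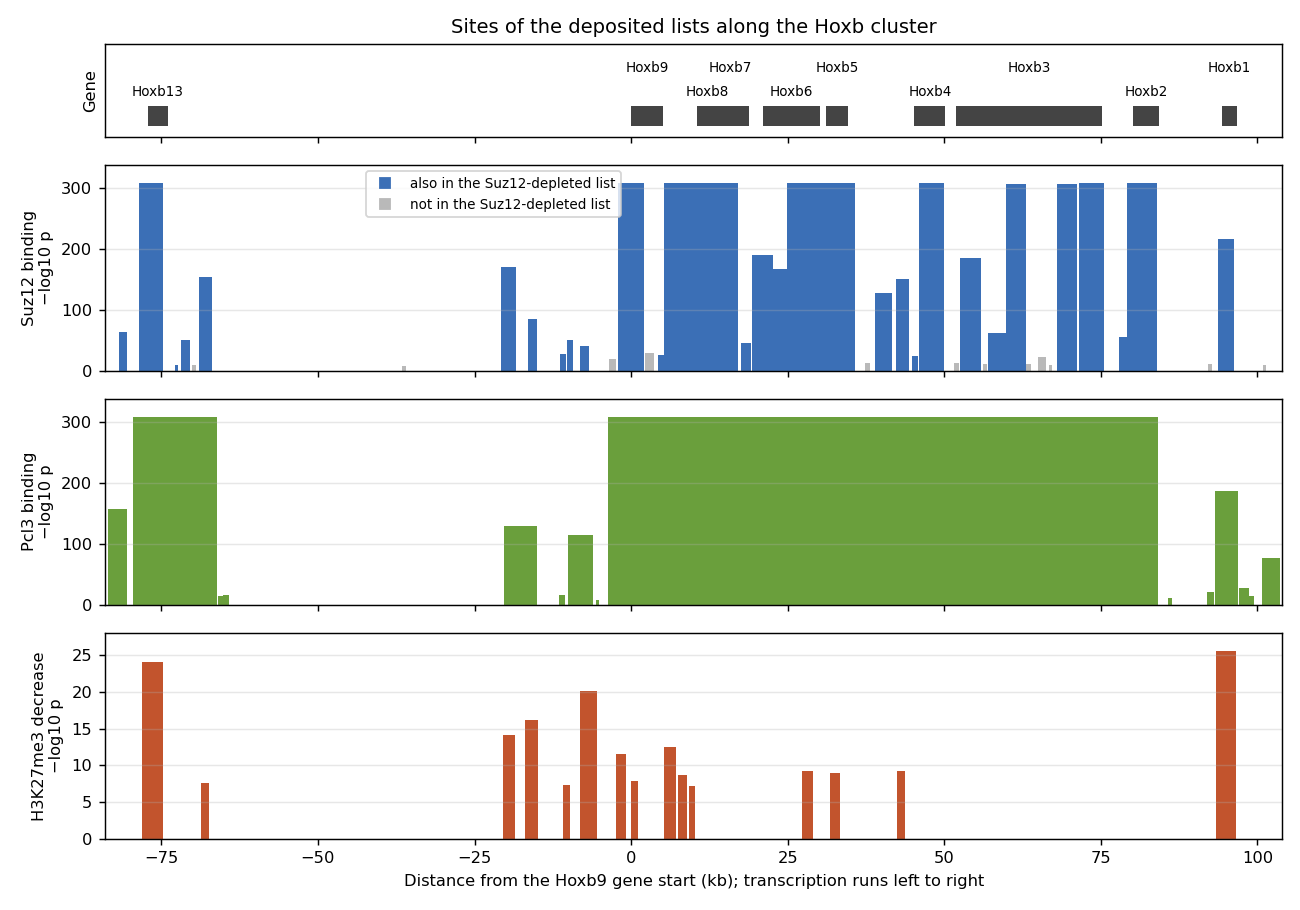
Sites along the Hoxb cluster by distance from the Hoxb9 gene start (x axis, kb), with genes in the top row and each site drawn as a bar as wide as the site and as high as its −log10 p in the Suz12, Pcl3 and H3K27me3-depleted lists. Suz12 sites in blue are also in the depleted list and those in grey are not; sites outside the gene windows are drawn up to the edges of the plot, and the H3K27me3 row is empty for 49650 bp across Hoxb4, Hoxb3 and Hoxb2.

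The joined windows span 119307 bp. Suz12 sites covered 71.5% of these bases, Suz12-depleted sites 64.0%, Pcl3 sites 90.4% and H3K27me3-depleted sites 15.2%. Every Suz12 base lay under a Pcl3 site, and 79.0% of the Pcl3 bases lay under a Suz12 site. By sites, all 35 Suz12 sites shared bases with a Pcl3 site, against 44.3% of all Suz12 sites and 99.7% of those in the strongest decile, and 31.4% did without the widest Pcl3 site. An H3K27me3-depleted site shared bases with 22.9% of the 35, against 6.90% of all and 19.4% of the strongest decile. Of the bases with decreased H3K27me3, 94.2% lay under a Suz12-depleted site and all under a Pcl3 site. The lists are therefore largely nested along the cluster, with the H3K27me3-depleted sites as short stretches mostly inside the Suz12 sites and those inside a broader Pcl3 domain. Whether a site was lost in a part of the cells or weakened in each of them cannot be told apart in these bulk libraries.

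Pcl3 binding was the broadest. A single Pcl3 site of 81300 bp, from chr11:96129151-96210450 with a p-value written as 0, held the annotated gene starts of 7 members, Hoxb9 to Hoxb3. It was the widest of the 5242 Pcl3 sites, whose median was 850 bp and whose next widest was 29100 bp. After a gap of 100 bp a further Pcl3 site of 6350 bp carried the domain over Hoxb2. The broad site shared bases with 24 Suz12 sites, of which 16 were in the depleted list, and 84.0% of its bases lay under them. Hoxb13 had a Pcl3 site of its own of 13400 bp, also written as 0, and Hoxb1 one of 3600 bp with a p-value of 1.16e-186.

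Suz12 binding was divided more finely, into 35 sites with widths from 450 to 11700 bp and a median of 1600 bp, against 1100 bp over the whole list. Their median strength was 62.4, against 26.2 over the list. They ran from 8.91 at a site downstream of Hoxb1 to 7 sites written as 0, and 12 were in the strongest of the 10 deciles of the list while another 12 were in its weaker 5 deciles. The widest of the 35, chr11:96138101-96149800, runs from upstream of Hoxb8 into Hoxb7 and ranked 12 in width among all Suz12 sites. The next, of 10800 bp at chr11:96157701-96168500, covers the 3′ part of Hoxb6 and all of Hoxb5 and ranked 17.

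Of the 35 Suz12 sites, 24 were in the depleted list, or 68.6% (exact 95% binomial interval 50.7% to 83.1%, which covers counting error only and treats neighbouring sites as independent). This compares with 64.5% of all Suz12 sites, and with 75.5% as the mean share depleted in the strength deciles that the 35 sites come from. The split followed strength: 22 of the 23 sites in the stronger 5 deciles were in the depleted list and 2 of the 12 in the weaker 5. Nearly all stronger sites of the whole list were depleted too. The Hoxb site at chr11:96137051-96137950, near the middle of the list, ranked 4435 in strength among 8876 Suz12 sites and 4310 among the 5722 depleted ones. Over the whole list, too, depleted sites were stronger, with a median of 53.5 against 26.2 for all Suz12 sites. The share depleted in its weaker 5 deciles is not given, so the 2 of 12 has no background. The 24 Hoxb sites in the depleted list had a median strength of 176 and a median width of 2750 bp. Those outside it had 11.8 and 700 bp. All 7 sites written as 0 were in the list, as were all 435 such sites of the whole Suz12 list.

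The posterior genes Hoxb13 and Hoxb9 encode proteins that pattern the tail end of the body and are relatives of fly Abdominal-B. Each had a Suz12 and a Pcl3 site written as 0, as did every other member except Hoxb1. Hoxb13 (chromosome 11 from 96055630 to 96058761, plus strand, as all members) stands apart from the others, upstream of Hoxb9. A Suz12 site of 3900 bp over its start was written as 0 and was in the depleted list. An H3K27me3-depleted site of 3250 bp over the same start had a p-value of 7.40e-25 and ranked 12 among all 678. Of the 6 Suz12 sites in its window 5 were in the depleted list.

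Hoxb9 (96132771 to 96137909) had the most bases with decreased H3K27me3 of the 10 members, 45.6% of its window in 5 sites. The smallest of these p-values was 3.54e-13, at chr11:96138101-96139900 just past its 3′ end. A further site, with a p-value of 1.25e-08, began 30 bp inside the gene, over its first coding exon. The Suz12 site over its start, 4300 bp wide and written as 0, was in the depleted list. The intronic site shown above, with a Suz12 p-value of 6.16e-30, was the strongest of the 11 Hoxb sites outside it.

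Of the central genes Hoxb8, Hoxb7, Hoxb6 and Hoxb5, which pattern the trunk and neck, the first 3 had the densest Suz12 cover of the 10 members. It reached 96.3% of the window of Hoxb8 (96143219 to 96146639), 95.6% of that of Hoxb7 (96145571 to 96151650) and 95.8% of that of Hoxb6 (96153790 to 96162883). For these 3 genes every Suz12 base was also under a depleted site, and every base of the window was under the broad Pcl3 site. Hoxb5 (96163909 to 96167434) had 81.5% under Suz12 and 76.0% under depleted sites, against 82.3% and 66.1% at Hoxb9.

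Decreased H3K27me3 covered 31.2% of the window of Hoxb8, 13.6% of that of Hoxb7, 17.5% of that of Hoxb6 and 24.8% of that of Hoxb5, against 24.7% at Hoxb13. Its p-values lay between 3.54e-13, at the site shared with Hoxb9, and 6.32e-08. The 3 sites in the window of Hoxb8 lay upstream of the gene, the nearest ending 219 bp before its start and covering 32 of the 250 promoter bases shown above. The window of Hoxb7 held the nearer 2 of these, which end 2571 bp or more before its start. At Hoxb6 and Hoxb5 the sites lay over coding exons, at chr11:96160001-96161800 with a p-value of 5.96e-10 and at chr11:96164501-96166050 with one of 9.32e-10. The Hoxb6 site covered the start of the shorter transcript, Hoxb6-001, and lay 6211 bp from that of the longer.

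The anterior genes Hoxb4, Hoxb3, Hoxb2 and Hoxb1, which pattern the hindbrain and neck, differed most among themselves. Hoxb4 (96177998 to 96182952), also known from blood stem cells, had 80.6% of its window under Suz12 and 1 H3K27me3-depleted site, 1498 bp upstream of its start with a p-value of 6.59e-10. Hoxb3 (96184640 to 96207999) had 13 Suz12 sites, the most of any member and in the longest window, and 8 of them were in the depleted list. The Suz12 site at its annotated start was weak, with a p-value of 6.62e-14, and was the only one over a gene start that was outside the depleted list. A second distal start, of transcript Hoxb3-003, lay in a site of 4.14e-12 that was also outside the list. The start of the short transcript Hoxb3-001 at 96205083 lay in a site written as 0 that was in it. Hoxb2 (96212946 to 96217003) had 3 Suz12 sites, 2 of them written as 0 and all in the depleted list.

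Hoxb3 and Hoxb2 had no H3K27me3-depleted site. Between the site upstream of Hoxb4 and that at Hoxb1, 49650 bp held none, the longest such stretch from Hoxb9 to Hoxb1. Over these bases 66.1% lay under Suz12, 57.2% under depleted Suz12 and 85.0% under Pcl3. It held 15 Suz12 sites in full, 9 of them in the depleted list and 3 written as 0. On the other side, from Hoxb9 to the Hoxb4 site (48730 bp), 86.5% lay under Suz12, 79.9% under depleted Suz12 and 24.0% under decreased H3K27me3. Absence from the list says that no window passed the authors' cutoff, and the level of H3K27me3 at Hoxb3 and Hoxb2 in either cell population is not given.

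Hoxb1 (96227066 to 96229570), at the 3′ end of the cluster and active in a segment of the hindbrain, had the least Suz12 cover and the smallest H3K27me3 p-value. Suz12 covered 29.6% of its window in 3 sites. That over the gene was 2450 bp wide with a p-value of 2.42e-216 and was in the depleted list, and the others, at 1.67e-12 and 1.24e-09, were not. The H3K27me3-depleted site, chr11:96226151-96229350, ran over the whole promoter shown above and most of the gene. Its p-value of 2.90e-26 ranked 10 among all 678, and its width of 3200 bp ranked 6. Hoxb1 and Hoxb13, the outermost members, were the ones whose annotated start lay inside an H3K27me3-depleted site, and the other 8 sites in the Hoxb windows were weaker than theirs.

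**Figure D2:**
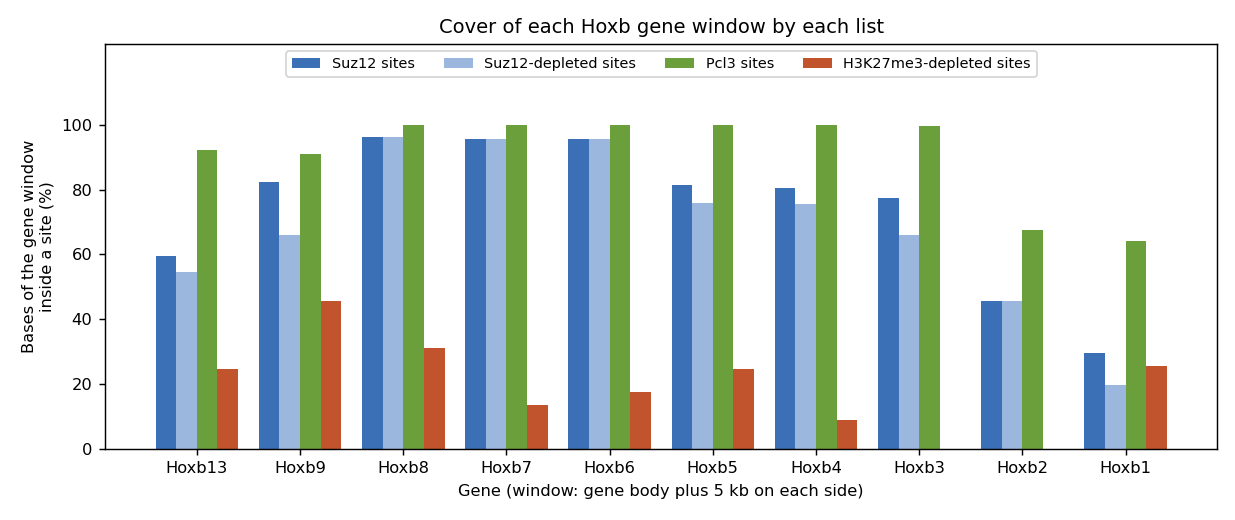
Percent of the bases of each gene window (gene body plus 5 kb on each side) inside a site of each list, for the 10 Hoxb genes in chromosome order. Pcl3 cover is 64.1% or more at every gene, Suz12 cover falls from 96.3% at Hoxb8 to 29.6% at Hoxb1, and H3K27me3-depleted cover is 0 at Hoxb3 and Hoxb2.

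By annotated starts, all 16 protein-coding transcripts of the 10 genes began inside a Suz12 site and inside a Pcl3 site. Of these, 14 began inside a Suz12-depleted site, the exceptions being the 2 distal Hoxb3 starts. Only 4 began inside an H3K27me3-depleted site, those of Hoxb1-001, Hoxb6-001, Hoxb9-002 and Hoxb13-001. The same share over all transcripts was not computed, and the nearest background is that within 2 kb of the gene start. There, Suz12, Suz12-depleted and Pcl3 sites were each found at all 10 members, against 23.1%, 16.4% and 11.6% of all genes, and decreased H3K27me3 at 6 of 10, against 1.57%.

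The Suz12 sites of the cluster were poor in CpG, the dinucleotide that CpG islands are rich in. Averaged over whole sites, their median was 2.38 CpG per 100 bp, against 5.41 over all Suz12 sites, and their highest was 4.98 at the start of Hoxb9. In the central 500 bp the medians were 2.60 and 7, and 4 of the 35 sites, at Hoxb9, upstream of Hoxb4, in Hoxb3 and at Hoxb2, lay above 7. The RefSeq promoters were set against all RefSeq promoters and not against Suz12 sites, so these values do not compare with those above. Those of Hoxb1, Hoxb8 and Hoxb4 held 10, 13 and 14 CpG in their full 300 bases, against a median of 7. Of all RefSeq promoters, 56.5%, 62.1% and 63.7% held fewer than these. Within the cluster, the 24 sites in the depleted list had a median of 3.08 and the 11 outside it one of 1.08, with values from 0.889 to 4.98 and from 0.455 to 2.00. The ranges overlap. Since the sites in the list were also stronger and wider, these properties and CpG density cannot be told apart here. Over the whole list the medians were 5.45 inside and 5.27 outside the depleted list. The central 500 bp of each site is a fixed length. It takes in all of the shortest site and little of the widest, so width is not set aside. There, the medians were 3.60 inside and 1.00 outside at Hoxb, and 7.60 and 5.80 over the whole list. The Hoxb9 intron site shown above, with 0 CpG in its middle 200 bases, was the 1 site of the stronger 5 deciles outside the depleted list.

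**Figure D3:**
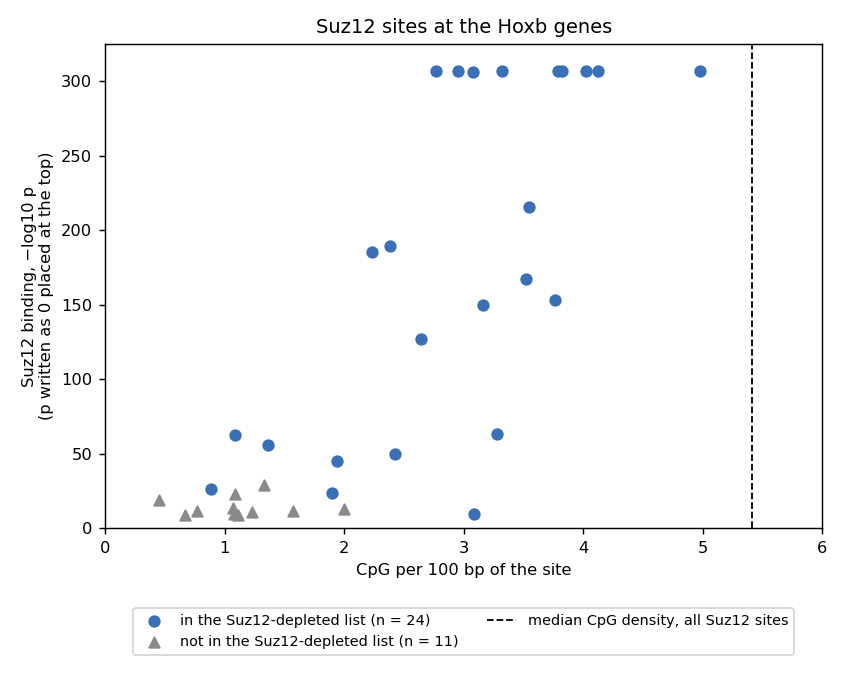
Strength of the 35 Suz12 sites at the Hoxb genes (y axis, −log10 p) against their CpG per 100 bp over the whole site (x axis), each point 1 site, circles for the 24 in the Suz12-depleted list and triangles for the 11 outside it. The sites outside the list sit at 2.00 CpG per 100 bp or less, and every Hoxb site lies left of the dashed median of all Suz12 sites, 5.41.

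The sequence GCGCGC, which reads the same on both strands, was searched without other motifs. It was present at 8 of the 35 Suz12 sites, or 22.9%, against 52.5% of all Suz12 sites. Widths differ between sites, and in the central 500 bp the shares were 11.4% and 37.5%. All 8 sites that held it were in the depleted list. Over the whole list, too, it was commoner in the depleted list, at 63.5% of the sites inside and 32.6% of those outside. In the central 500 bp these shares were 42.0% and 29.3%, and at Hoxb 4 of 24 and 0 of 11. The promoters shown above hold none, and 13.6% of the 32851 RefSeq promoters, each of 300 bases, do. A match is a description of the sequence and not of binding.

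The cluster also carries microRNA genes. Mir196a-1 lies at chr11:96126478-96126579 between Hoxb13 and Hoxb9, and Mir10a at chr11:96178479-96178588 inside the first exon of Hoxb4. Mature sequences from RefSeq are given with the seed, bases 2 to 8, in capitals, to show that the pair share no seed.
mmu-miR-196a-5p: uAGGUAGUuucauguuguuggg
mmu-miR-10a-5p: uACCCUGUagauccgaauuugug
Mir196a-1, whose product is known to target Hoxb8 mRNA, lay inside an H3K27me3-depleted site of 2650 bp with a p-value of 7.02e-21, smaller than at any Hoxb gene other than Hoxb1 and Hoxb13. It also lay inside a Pcl3 site of 9.94e-116, and the Suz12 site just upstream, at 1.14e-41, was in the depleted list. Mir10a shared bases with a Suz12 site of 9.30e-25 that was in the depleted list and lay inside the broad Pcl3 site, but in no H3K27me3-depleted site.

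ChIP amplicons of the study fall at 4 places in the cluster, and their primers, listed in the supplement, were matched to mm9 to place them in the lists. The primers are shown to locate each amplicon.
Hoxb13 forward: ctcgttaaacctgccaaagc
Hoxb13 reverse: cataaaatcctcccgcagaa
Hoxb7 forward: accgagttccttcaacatgc
Hoxb7 reverse: caggggtagatccggaagtt
The Hoxb13 amplicon (chr11:96055274-96055544, outside the gene, just upstream) lay in a site of all 4 lists. The Hoxb7 amplicon (chr11:96148284-96148427, coding exon) lay in the broad Pcl3 site and in the widest Suz12-depleted site of the Hoxb windows. The nearest H3K27me3-depleted site was 5284 bp away. That distance refers to the site list only, and the study's own ChIP-qRT-PCR at this amplicon is not used here. The mir10a amplicon (chr11:96176325-96176439) lay inside the H3K27me3-depleted site upstream of Hoxb4, near its end. The mir196a amplicon (chr11:96122794-96122926) lay in a coding exon of Gm53, in a site of all 4 lists.

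The 64009 bp between the window of Hoxb13 and that of Hoxb9 held 7 Suz12, 6 Suz12-depleted, 7 Pcl3 and 5 H3K27me3-depleted sites, counting those that reach in from its edges. Of the nearest protein-coding genes on each side, Ttll6 and Skap1 had sites and the others had none. Over all protein-coding genes 28.8% had a Suz12 site and 2.24% had sites of every list. The genes beside the cluster are too few to say whether they differ from these shares, which was not tested. On the Hoxb13 side Ttll6 had 2 Suz12 sites, 1 of them depleted, 2 Pcl3 sites and 1 H3K27me3-depleted site in its window. The smallest p-value of its Pcl3 sites was written as 0, and these sites lay in the flanks and not in the gene. Calcoco2 and Atp5g1 had none of any list. On the Hoxb1 side Skap1, which starts 96337 bp from Hoxb1, had 2 Suz12 sites, 1 of them depleted, and no Pcl3 or H3K27me3-depleted site, and Snx11 and Cbx1 had none.

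The other Hox clusters were measured in the same way. Suz12, Suz12-depleted and Pcl3 sites were present at all 11 Hoxa, 9 Hoxc and 9 Hoxd genes, as at the Hoxb genes. Suz12 covered 69.9% of the Hoxa, 60.0% of the Hoxc and 60.6% of the Hoxd windows, and Pcl3 88.3%, 85.4% and 78.4%. The widest Pcl3 site was 19400 bp at Hoxa, 29100 bp at Hoxc and 12650 bp at Hoxd. The share of Suz12 sites in the depleted list was 75.0% at Hoxa (exact 95% binomial interval 55.1% to 89.3%), 85.2% at Hoxc (66.3% to 95.8%) and 71.0% at Hoxd (52.0% to 85.8%). These intervals overlap that of the Hoxb sites.

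Genes with an H3K27me3-depleted site numbered 8 of 10 at Hoxb and 7 of 11 at Hoxa, against 2 of 9 at Hoxc and 2 of 9 at Hoxd. The number of sites and the bases they covered were highest at Hoxb. Its windows held 10, those of Hoxa 5, of Hoxc 2 and of Hoxd 1, and they covered 15.2%, 6.53%, 2.13% and 1.13% of the bases. The smallest p-value was 2.90e-26 at Hoxb, 3.47e-11 at Hoxa, 1.27e-10 at Hoxc and 3.18e-08 at Hoxd. Chromosome 11, which holds Hoxb, differed in the same direction: of its genes with a Suz12 site 28.4% also had an H3K27me3-depleted site, and the share was 5.17% on chromosome 6 (Hoxa), 13.9% on chromosome 15 (Hoxc) and 10.4% on chromosome 2 (Hoxd). Of the 198 H3K27me3-depleted sites of chromosome 11, 10 lay in the Hoxb windows. The counts of genes and sites at Hoxb rest on the 5 kb flanks and the authors' cutoff as given above. The difference between the clusters was not tested, nor was the part of the chromosome in it.

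**Figure D4:**
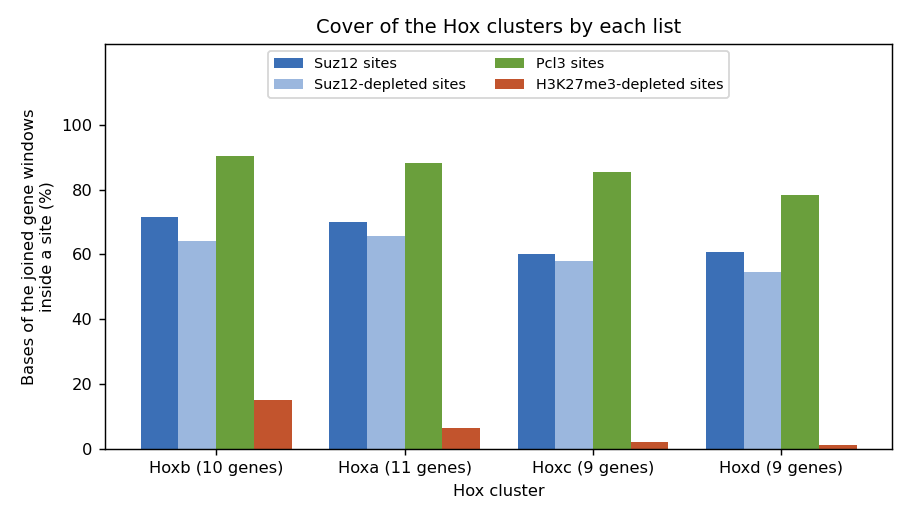
Percent of the bases of the joined gene windows (gene body plus 5 kb on each side) inside a site of each list, for the 4 Hox clusters with 9 to 11 genes each. Suz12 and Pcl3 cover lies between 60.0% and 90.4% in each cluster, and H3K27me3-depleted cover between 1.13% at Hoxd and 15.2% at Hoxb.

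Among genes that act with Hox proteins, 5 of the 9 DNA-binding cofactors (Pbx, Meis and Pknox genes) had a Suz12 site, all 5 with a depleted one, 4 had a Pcl3 site, and 1, Meis1, had an H3K27me3-depleted site. Of 10 upstream regulators (Cdx factors and genes of retinoic acid synthesis, breakdown and reception), 10 had a Suz12 site, 7 a depleted one, 8 a Pcl3 site and 1, Cdx2, an H3K27me3-depleted one. Over all protein-coding genes 28.8% had a Suz12 site. Among all genes with a Suz12 site the shares were 71.7% for depleted Suz12, 47.7% for Pcl3 and 10.5% for decreased H3K27me3. The regulators' 7 and 1 of 10 were near these shares. Their 8 of 10 with Pcl3 was above. Among the 5 cofactors with a Suz12 site, the 5 with depleted Suz12, 4 with Pcl3 and 1 with decreased H3K27me3 were also above. These differences rest on few genes and were not tested. The retinoic acid receptor genes Rara, Rarb and Rarg had Suz12 sites outside the depleted list. The ESC genes Pou5f1, Nanog and Zfp42 had no site of any list, and Sox2 had 1 Pcl3 site. The site lists hold no expression values, so the ESC label was not checked by marker levels here.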

How the data were processed

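The authors used bowtie and mm9 to align single-end reads of 30 nucleotides, retained unique alignments, scaled paired libraries to equal background, tested running windows of 400 bp with the Skellam distribution at a cutoff of 1e-07 and joined significant windows. They deposited 4 lists with 1 p-value per site, the only measured value used. Unique alignment leaves out repeats, and joining makes broad domains a single site. Whether the 2 Pcl3-TAP libraries were pooled is not given in the sources used here.

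Gene windows from GENCODE vM1 (NCBIM37, the same assembly as mm9) were intersected with the sites, which had to share at least 1 bp. Coordinates are 1-based. Genes were named by family and position: the 10 Hoxb genes, the 2 microRNA genes, the 3 nearest protein-coding genes on each side, non-coding genes of the cluster, other Hox genes, Hox cofactors and upstream regulators. The members and lists were chosen with earlier results of these data known, and exceptions by strength and sequences were singled out after their values were seen. No test was run. The share of Suz12 sites in the depleted list carries an exact binomial interval at each Hox cluster, and other shares carry none. Alternatives were other windows, starts, centers, p-value cutoffs and merged sites. The overlap functions, tested on simulated data, differed from a full search in 0 of 1000 windows. Figures were drawn with matplotlib 3.10.9, and intervals and tables computed with scipy 1.17.1, pandas 2.3.3 and numpy 2.4.6 in Python 3.11.15.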

Additional observations from a re-analysis of the deposited data

How the results depend on the processing

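Every member had a Suz12, a Suz12-depleted and a Pcl3 site under each window and p-value cutoff tried. When the center of the Pcl3 site had to lie in the window, 4 members had one, since the center of the 81300 bp site falls in the window of Hoxb5 alone. Likewise, 22.9% of the 35 Suz12 sites had a Pcl3 center within 2 kb, although all share bases with a Pcl3 site, and without the 81300 bp site 31.4% share bases. Decreased H3K27me3 was found at 5 members in the gene body alone (Hoxb1, Hoxb5, Hoxb6, Hoxb9 and Hoxb13), at 10 within 10 kb, and at 4 with p-values of at most 1e-10 or 1e-12 (Hoxb1, Hoxb8, Hoxb9 and Hoxb13). Within 10 kb, Hoxb2 and Hoxb3 gained a site. A setting added after the data were seen, 2 kb around any transcript start, gave 7. In gene bodies alone there were 23 Suz12, 4 Pcl3 and 5 H3K27me3-depleted sites, within 10 kb 18 Pcl3 sites, and with p-values of at most 1e-12 there were 3 H3K27me3-depleted sites. Merging sites less than 1 kb apart left 10 Suz12, 12 Suz12-depleted and 6 Pcl3 sites, so numbers of sites depend on how windows were joined. Cover of the gene bodies alone was 89.4% by Suz12, 81.8% by Suz12-depleted, 99.8% by Pcl3 and 14.1% by H3K27me3-depleted sites, and Pcl3 cover of the windows without the 81300 bp site was 22.8%. Width in place of the p-value gave a median of 1600 bp. The other 48 of 68 recomputed values stayed within their interval or within 1.5 times the count. No paired analysis was possible because each list is a single call without columns per replicate. Depth limits what an absence means, since no reads per site are given.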

Other observations

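Non-coding genes of the cluster, which no comparison above used, carried sites of the same lists in windows of the gene plus 5 kb. The antisense transcript Hoxb3os, which runs from Hoxb2 back into Hoxb3, had 4 Suz12 sites, all in the depleted list, 3 Pcl3 sites and no H3K27me3-depleted site. Gm11536, antisense within Hoxb3, had 6 Suz12 sites, 3 of them in the depleted list, and likewise no H3K27me3-depleted site. 0610040B09Rik, antisense across Hoxb6 and Hoxb5, had 7 Suz12 sites, 6 of them in the depleted list, and 2 H3K27me3-depleted sites. The lincRNA Gm11538, downstream of Hoxb13, had 4 Suz12 sites, 3 of them depleted, and an H3K27me3-depleted site of 2.50e-08. On the far side of Hoxb13, Gm11535 had 3 Suz12 sites, all depleted, and an H3K27me3-depleted site of 2.07e-12. The pseudogene Gm11539 had 1 site of each list, and the pseudogene Gm11531, past Hoxb1, had none. Gm53, a protein-coding gene between Hoxb13 and Hoxb9, had 7 Suz12 sites, 6 of them depleted, and 5 H3K27me3-depleted sites. Sites at these genes are in part those of the Hoxb windows, and ChIP fragments carry no strand, so antisense pairs cannot be told apart.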
